A study of Mus musculus with 66 samples.

Results

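The genes described here are splicing regulators and neuronal RNA-binding proteins, read from RNA sequencing of cultured mouse neurons in which chromatin and transcription regulators had been depleted. They were taken by gene symbol alone, with no measured value, from 11 families: Srsf, Hnrnp, Rbfox, Nova, Celf, Elavl, Ptbp, Mbnl, Khdrbs, Srrm and Qk. The symbols matched 61 of the 30084 in the count table. Of these, 60 were among the 16145 genes that passed the filter on low counts. The exception was Hnrnpa1l2-ps2, annotated as a processed pseudogene, with a median of 0 and at most 10 counts per library. By family, the tested members were 20 Hnrnp, 11 Srsf, 6 Celf, 4 Elavl, 4 Srrm, 3 Rbfox, 3 Ptbp, 3 Mbnl, 3 Khdrbs and 2 Nova genes, and Qk.

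Splicing regulators bind short sequence elements in pre-mRNA and raise or lower the use of nearby splice sites, and each works on many transcripts. SR proteins (the Srsf genes) mostly promote the use of exons they bind, hnRNP proteins often repress it, and Rbfox, Nova, Celf, Elavl, Ptbp, Mbnl, Khdrbs and Srrm proteins set the exon choices that distinguish neurons from other cells and mature from immature neurons. Many of these genes also control their own mRNA through exons that expose it to nonsense-mediated decay. The values below are gene-level counts, so they measure the mRNA of the regulators and not the splicing of their targets.

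Neurons came from wildtype mouse embryos at E16.5, kept apart by sex. The strain is not in the labels, and neither is the brain region. Every culture was treated in triplicate wells with lentivirus for an shRNA, a hairpin that lowers the mRNA it matches, or was left without virus. The virus was taken off at day 6 in vitro and lysis followed at day 10. The 9 targets were Ash1l and Setd5 (linked to histone methylation), Kmt2c (a histone H3 lysine methyltransferase), Kdm6b (a histone H3 lysine demethylase), Chd8 (a chromatin remodeler), Dnmt3a (a DNA methyltransferase), Mbd5 (a methyl-CpG-binding domain protein), Med13l (a subunit of the Mediator kinase module) and Tbr1 (a T-box transcription factor of cortical excitatory neurons). Each shRNA, a nontargeting shRNA and the no virus condition had 3 libraries per sex, 66 in all. The labels give a dose meant to leave about 50% of the target mRNA. How many hairpins were used per target is not given in the sources used here, so an effect of the depletion and an effect of 1 hairpin cannot be told apart. Nothing in the labels says whether replicates came from separate litters, so p-values measure the spread between these libraries, which may be technical.

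Library totals ran from 13634872 to 66074822 counts with a median of 31494162, and the 61 genes took 0.77% to 1.1% of them. Each target was lower in its own knockdown, at 22.3% to 54.3% of the nontargeting mean, and 15 of 18 target and sex combinations passed the test. The others were Kdm6b in both sexes and Setd5 in males. In the library labelled Setd5 shRNA male 1, Setd5 was at 141 CPM (counts scaled to a common library total), against 42.9 and 42.7 in male 2 and 3, and Kdm6b was at 23.1 CPM, against 47.2 and 62.6. The library labelled Kdm6b shRNA male 1 had 39.9 CPM of Kdm6b, against 17.2 and 17.1 in male 2 and 3, and 44.9 CPM of Setd5, against 120 and 165. So in each of these 2 libraries its own target was higher, and the other's target lower, than in the rest of its male group. Which label is right was not tested, and the labels were kept as given. Kdm6b was also at 36.2 CPM in Kdm6b shRNA female 3, against 10.7 and 21.1 in female 1 and 2 and 31.0 to 54.3 in the nontargeting females. The library labelled Setd5 shRNA female replicate 1 had 612 counts of the Y-linked gene Ddx3y and 574 of Kdm5d, against at most 12 and 2 in the other female libraries and at least 1690 and 696 in the males. The libraries labelled Setd5 shRNA male 1 and female 1 and Kdm6b shRNA male 1 are called the 3 doubted libraries. Member values after Setd5 and Kdm6b shRNA are given with and without them where a call or a named value rests on them, while fits with a replicate block keep them. Neuron markers were high in every library, with a summed level over 11 genes of 6700 to 9650 CPM. Of 7 microglia markers, Cx3cr1, P2ry12, Tmem119, C1qa and C1qb were under 1 CPM in the nontargeting libraries, as were Sox10 of the oligodendrocyte lineage and Cldn5 of the endothelium. Other markers of non-neuronal cells were detected there. The sums were 106 to 183 CPM for 8 astrocyte, 40.7 to 51.3 CPM for 8 oligodendrocyte lineage and 17.6 to 49.3 CPM for 6 fibroblast and endothelial markers.

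Levels are compared between genes per kilobase of merged exons (RPKM) in the 6 nontargeting libraries, 3 per sex. Elavl3, a neuronal Hu protein, had the highest median, with a lowest, median and highest level of 61.4, 72.9 and 77.4 RPKM. Hnrnpa1, a widely expressed splicing repressor, followed at 66.5, 70.5 and 88.8 RPKM, and Rbfox2 at 59.6, 62.2 and 66.4 RPKM. The range of Elavl3 overlapped those of Hnrnpa1, Rbfox2, Hnrnpk, Hnrnpc and Hnrnpa2b1, so its place among them is not resolved. The ranges of Rbfox2, Hnrnpk, Hnrnpc and Hnrnpa2b1 (medians of 62.2, 61.9, 58.7 and 55.8 RPKM) also overlapped, each with the next, which leaves their order open. Within families the order was clearer. Rbfox2 was above Rbfox1 (median 24.3 RPKM), and Rbfox1 above Rbfox3 (12.5 RPKM), with no overlap between their ranges. Among the Ptbp genes, Ptbp2, the form that neurons express, had 14.1, 16.9 and 23.8 RPKM. Ptbp1, the form of progenitors and glia that represses neural exons, had 2.6, 3.02 and 3.64 RPKM, with no overlap with Ptbp2, and Ptbp3 had 1.79, 2.07 and 2.27 RPKM.

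Elavl2 and Elavl4, the other neuronal Hu genes, had medians of 26.4 and 23.4 RPKM with overlapping ranges, and the ubiquitous Elavl1 had 6.64 RPKM. The Celf genes lay between Celf4 at a median of 38.2 RPKM and Celf2 at 18.0 RPKM. Srrm4, the microexon activator, had 7.92 RPKM, its relative Srrm3 had 4.76 RPKM, and the nuclear speckle scaffold Srrm2 had 35.3 RPKM. Mbnl2 was at 4.41 RPKM, Mbnl1 at 2.06 RPKM and Mbnl3 at 0.0521 RPKM, so the muscleblind genes were among the lowest. The RPKM values divide by all annotated exons of a gene, and genes with long alternative ends, such as Celf2 and Hnrnpr, are therefore understated relative to the others.

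**Figure D1:**
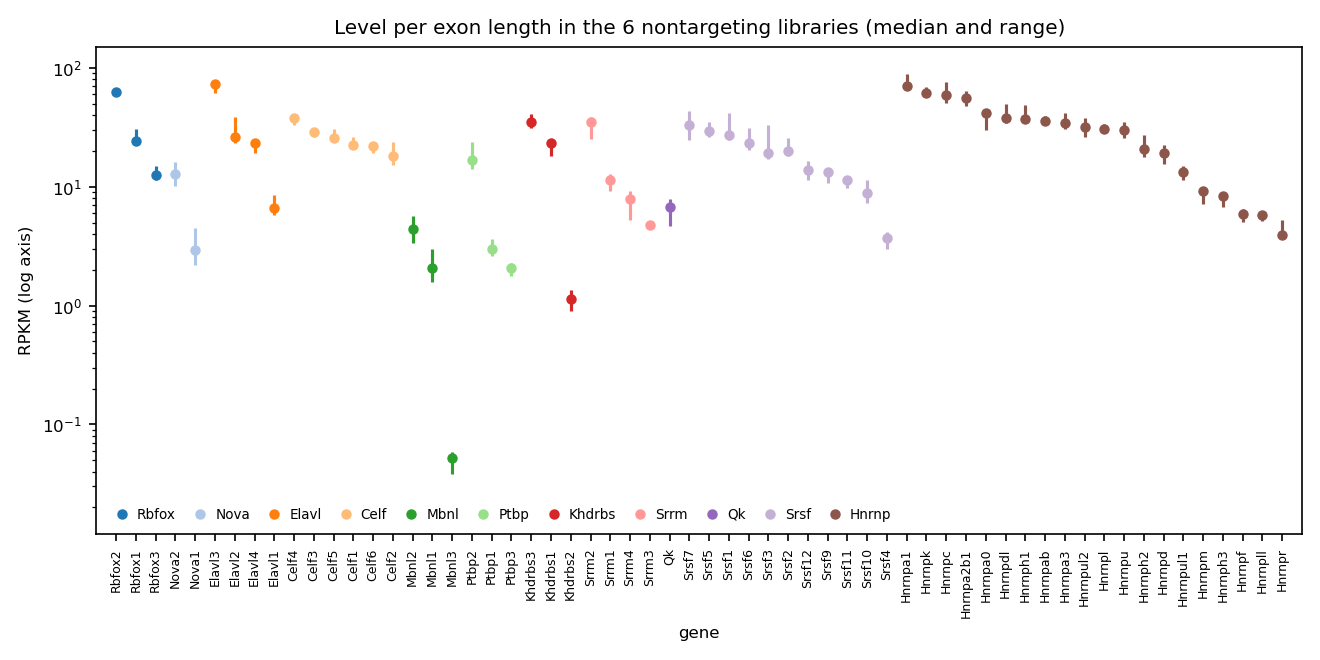
Level of each splicing regulator in nontargeting neurons, in RPKM (counts scaled to exon length and library size) on a log axis. Points are the median and lines the range of 6 libraries (3 male, 3 female), grouped by family, and Hnrnpa1l2-ps2, whose median is 0, is left out. Elavl3, Hnrnpa1 and Rbfox2 have the highest medians (72.9, 70.5 and 62.2 RPKM) and Mbnl3 the lowest (0.0521 RPKM).

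Each knockdown was compared with the nontargeting shRNA with the sexes averaged, 6 libraries against 6, by the quasi-likelihood F test of edgeR, with p-values adjusted by Benjamini-Hochberg over all 16145 genes and a threshold of 0.05. A gene that passed is said to have risen or fallen, and controls are the nontargeting libraries. After Med13l shRNA 15 of 60 splicing regulators passed, 5 higher and 10 lower, in a comparison in which 24.1% of all genes did (11.8% higher and 12.3% lower). After Chd8 shRNA 11 passed, 9 higher and 2 lower, against a background of 22.3% (9.85% higher and 12.5% lower). Ash1l shRNA gave 1 higher and 2 lower (background 6.16%), Setd5 shRNA 2 higher and 1 lower (background 5.3%), and Tbr1 shRNA 2 lower (background 1.33%, of which 1.08% lower). None passed after Dnmt3a (background 1.4%), Kdm6b (0.966%), Kmt2c (0.694%) or Mbd5 shRNA (0.663%). At an unadjusted p under 0.05 these 4 knockdowns had 7, 3, 0 and 1 members (11.7%, 5.0%, 0% and 1.7%). Of all genes 9.7%, 11.5%, 6.9% and 6.9% were under that value. DESeq2 called 3, 1, 0 and 0 members. Without the 3 doubted libraries Setd5 shRNA kept Elavl4 and Rbfox2 of its 3 calls (background 4.93%), and Kdm6b shRNA had 1, Hnrnpul1 (background 1.38%). As shares of the 60 genes, the calls were 25% after Med13l, 18.3% after Chd8, 5.0% after Ash1l and after Setd5, and 3.3% after Tbr1 shRNA. All of these shares but the last were near or below the background, and the last rests on 2 genes.

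Over the 540 pairs of a member and a knockdown, 34 passed, or 6.3%, where 6.99% of all such pairs over the transcriptome did, and they divided into 17 higher and 17 lower. At least 1 knockdown changed 24 of the 60 genes (40.0%, against 44.5% of all genes), at least 2 changed 7 (11.7%, against 14.1%) and at least 3 changed Elavl3, Elavl4 and Hnrnpab (5.0%, against 3.38%). The knockdowns share their control libraries, so recurrence across them is not independent. Celf1, Celf5, Elavl4 and Hnrnpab rose in 1 knockdown and fell in another. The sizes were small: the median absolute log2 fold change over members was 0.158 after Med13l shRNA and 0.138 after Chd8 shRNA, beside 0.286 and 0.255 over all genes tested, and 0.07 to 0.098 in the other 7 knockdowns, beside 0.112 to 0.18. Members and all genes tested were not matched for level, so these medians do not show a weaker response of the members. Because the cultures were measured in bulk, fewer cells of a type and less RNA per cell cannot be told apart.

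**Figure D2:**
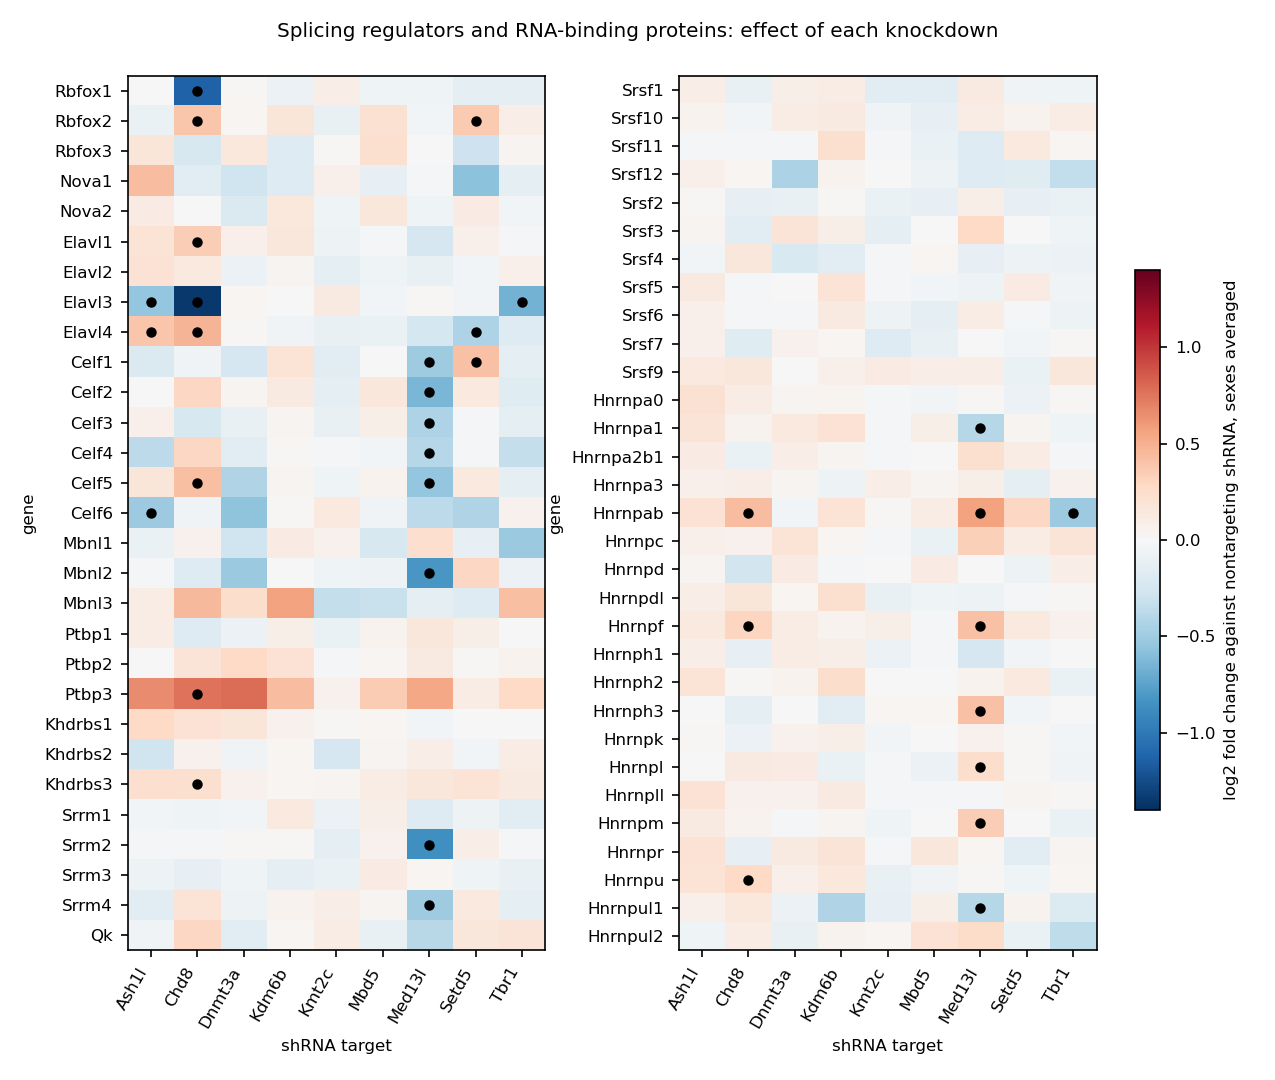
Log2 fold change against the nontargeting shRNA, sexes averaged (6 libraries against 6), for the 60 tested splicing regulators (vertical axis, by family) in the 9 knockdowns (horizontal axis). Colour gives the log2 fold change and a dot marks an adjusted p under 0.05 (edgeR). The 34 dots sit mostly in the Med13l (15) and Chd8 (11) columns, and the Srsf block has none.

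The same replicate numbers recur in every group of the labels. Taken as a block for the 6 knockdowns in which they pair the libraries in both sexes, they raised the counts to 18 after Chd8 shRNA (background 36.9%), 8 after Setd5 (16.2%), 6 after Dnmt3a (6.97%) and 6 after Tbr1 shRNA (6.57%), and left Kmt2c (2.97%) and Mbd5 (3.32%) at 0. Every call made without the block was also made with it. The members whose call it changed are named with their families.

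The largest change of any member was in the Elavl family, whose products bind AU-rich and U-rich elements in introns and 3′ untranslated regions. Elavl3 lies at chr9:22015005-22052023 on the minus strand (GRCm38, GENCODE annotation). It had a lowest, median and highest level of 423, 502 and 533 CPM in the nontargeting libraries and 416, 512 and 531 CPM without virus. After Chd8 shRNA it had 137, 195 and 231 CPM, so every library was below every nontargeting and no virus library. Elavl3 fell by 1.35 on the log2 scale (SE 0.12, adjusted p = 1.2e-12), to 0.393 of the control level, with −1.38 in males as log2 fold change and −1.31 in females. Levels were also below all nontargeting libraries after Ash1l shRNA, at 231, 325 and 419 CPM, and after Tbr1 shRNA, at 243, 288 and 399 CPM. The log2 fold changes were −0.545 (SE 0.12, adjusted p = 0.00162) and −0.66 (SE 0.12, adjusted p = 0.00057). In the other 6 knockdowns Elavl3 did not pass, and its log2 fold change lay between −0.038 after Mbd5 and 0.123 after Kmt2c shRNA. Med13l shRNA, which changed the most genes, left Elavl3 at 414, 498 and 572 CPM, spanning the control range. The 3 decreases passed under every alternative and without each library in turn.

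Elavl4 moved the other way in 2 of those knockdowns. The control libraries held 105, 126 and 137 CPM, and all libraries were above them after Chd8 shRNA (144, 164 and 236 CPM) and after Ash1l shRNA (140, 155 and 191 CPM). The no virus library female 1 was at 199 CPM, within the Chd8 range and above the Ash1l range. Elavl4 rose by 0.48 on the log2 scale after Chd8 shRNA (SE 0.12, adjusted p = 0.00147). The rise of 0.38 after Ash1l shRNA (SE 0.12, adjusted p = 0.0345) was less firm. It was lost against the no virus libraries (adjusted p = 0.161), with no filter on low counts (0.0671), and without Ash1l shRNA female 1, male 1 or male 3 or nontargeting female 3, male 2 or male 3 (0.0567 to 0.144). After Setd5 shRNA Elavl4 had 74.3, 92.0 and 114 CPM, with 5 of 6 libraries below the controls, and fell by 0.43 (SE 0.12, adjusted p = 0.0173). Without the 3 doubted libraries that change was −0.55 (adjusted p = 0.00543), but it did not pass without Setd5 shRNA female replicate 3 (0.0892) or male replicate 3 (0.068). Elavl1, the ubiquitous member, had 59.4, 68.8 and 88.9 CPM in controls and 78.5, 89.6 and 103 CPM after Chd8 shRNA, which overlapped. Its rise of 0.35 (SE 0.11, adjusted p = 0.022) was lost without Chd8 shRNA female 1 or male 3 or nontargeting female 1, female 3 or male 2 (0.059 to 0.0815). Elavl2 passed in no knockdown. Its smallest adjusted p was 0.616, after Ash1l shRNA, at a log2 fold change of 0.20.

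**Figure D3:**
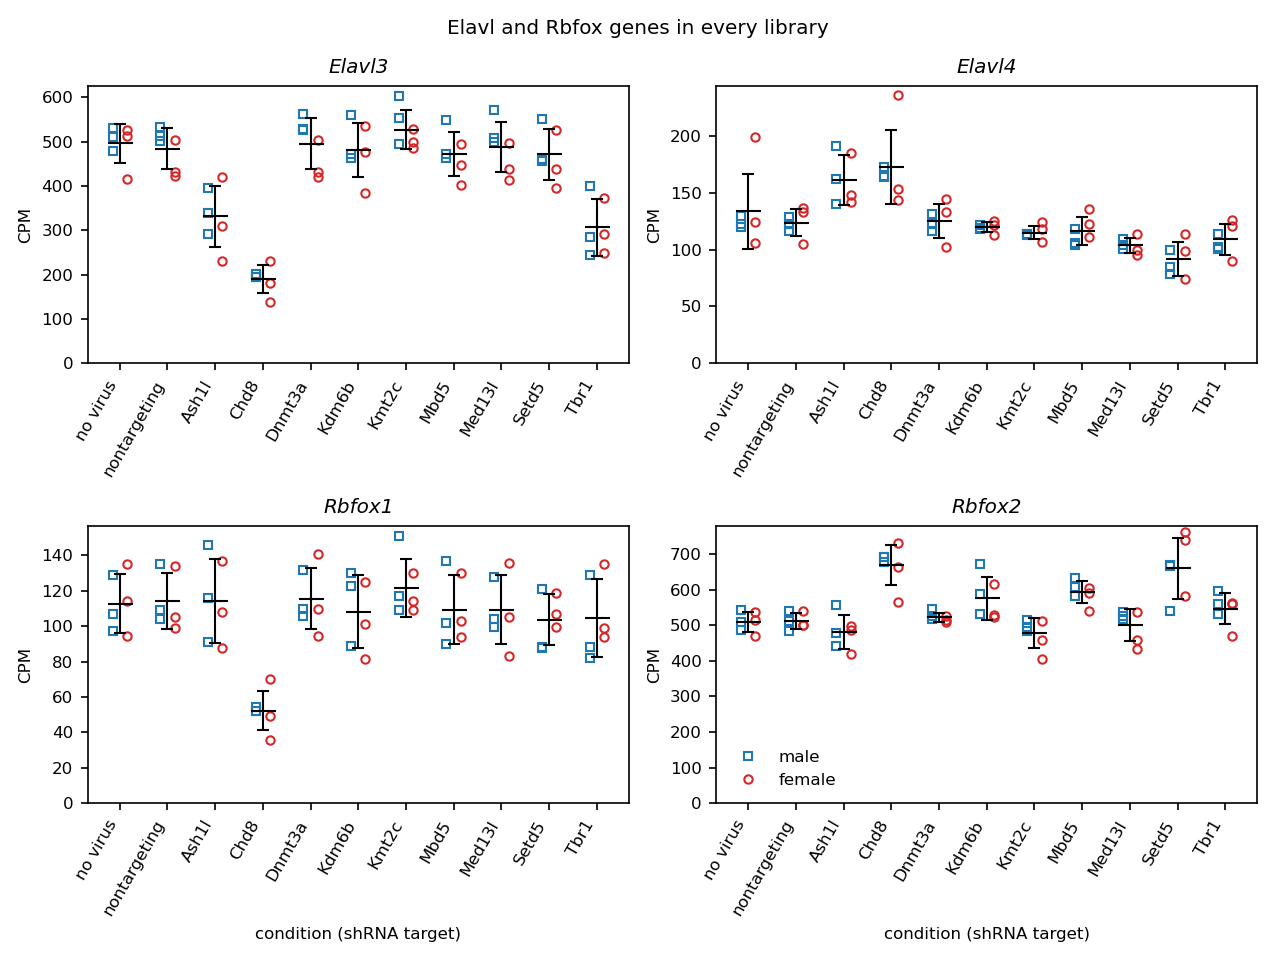
Level in CPM (vertical axis) of Elavl3, Elavl4, Rbfox1 and Rbfox2 in every library of the 11 conditions (horizontal axis). Squares are male and circles female libraries, and bars give the mean and SD of 6. Elavl3 is low after Chd8, Ash1l and Tbr1 shRNA (medians of 195, 325 and 288 CPM against 502), Rbfox1 is low after Chd8 shRNA (52.0 against 107), and Rbfox2 is high after Chd8 and Setd5 shRNA (684 and 669 against 506).

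Promoter sequences are shown for Elavl3, Hnrnpab and Celf1, members that changed in at least 2 knockdowns and have 1 start site in RefSeq, because they are the DNA that the depleted factors could meet at the gene itself. Each is the 250 bases before the RefSeq start (GRCm38.p6), given 5′ to 3′ in the direction of transcription. Capitals mark 3 promoter elements on either strand: the TATA box letters TATAAA (on the other strand they read TTTATA), the CCAAT box (read from the other strand it is ATTGG) and the GC box letters GGGCGG (on the other strand they read CCGCCC).
Elavl3, chr9:22052024-22052273, minus strand: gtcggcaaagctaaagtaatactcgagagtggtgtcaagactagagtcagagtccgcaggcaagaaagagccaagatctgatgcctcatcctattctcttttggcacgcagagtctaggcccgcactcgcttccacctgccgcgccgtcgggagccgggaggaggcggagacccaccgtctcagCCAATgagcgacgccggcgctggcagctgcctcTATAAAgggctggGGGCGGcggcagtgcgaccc
Hnrnpab, chr11:51606882-51607131, minus strand: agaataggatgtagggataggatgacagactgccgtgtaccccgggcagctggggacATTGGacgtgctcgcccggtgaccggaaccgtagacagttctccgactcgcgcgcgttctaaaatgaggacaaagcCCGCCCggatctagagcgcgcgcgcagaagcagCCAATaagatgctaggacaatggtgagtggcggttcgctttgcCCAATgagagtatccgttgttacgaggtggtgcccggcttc
Celf1, chr2:90940147-90940396, plus strand: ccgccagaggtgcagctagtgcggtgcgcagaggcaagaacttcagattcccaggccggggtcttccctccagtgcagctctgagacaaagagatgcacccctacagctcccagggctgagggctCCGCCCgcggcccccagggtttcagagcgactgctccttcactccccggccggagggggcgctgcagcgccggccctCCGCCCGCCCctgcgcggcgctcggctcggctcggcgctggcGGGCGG
The Elavl3 promoter held 1 TATA box, 1 CCAAT box and 1 GC box by these letters. Hnrnpab had 3 CCAAT boxes and 1 GC box, and Celf1 had 4 GC boxes with overlapping matches counted. Over 32851 mouse promoters of the same length, 12.4% held the TATA box letters, 33.8% those of the CCAAT box and 32.7% those of the GC box. The T-box letters GGTGTGA (on the other strand they read TCACACC) were in none of the 3. Only 3.33% of promoters hold them, so their absence from these 3 is uninformative. All 3 were rich in CG pairs, with 20, 23 and 24, against a median of 6 over all promoters and 18 over the 92 promoters of the 54 members that RefSeq lists. A match of letters, or the lack of one, is a description and shows neither binding nor its absence.

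Rbfox proteins bind UGCAUG and switch exons in neurons and muscle. After Chd8 shRNA 2 of the 3 genes passed, in opposite directions. Rbfox1, the form whose loss makes neurons hyperexcitable in mice, had 99.0, 107 and 135 CPM in the controls and 35.7, 52.0 and 70.2 CPM after Chd8 shRNA, with no overlap. Rbfox1 fell by 1.13 on the log2 scale (SE 0.16, adjusted p = 1.6e-07), by nearly the same amount in males (−1.13) and females (−1.12). It passed in no other knockdown: after Setd5 shRNA, for example, it was at 87.8, 103 and 121 CPM. Rbfox2, the more widely expressed form, had 485, 506 and 540 CPM in the controls. All 6 libraries were above that after Chd8 shRNA, at 566, 684 and 731 CPM, and after Setd5 shRNA, at 541, 669 and 762 CPM. Rbfox2 rose by 0.385 (SE 0.077, adjusted p = 0.00015) and 0.36 (SE 0.077, adjusted p = 0.00194). The lowest of the Setd5 values, 541 CPM, came from the library labelled Setd5 shRNA male 1, in which Setd5 was not lower. Without the 3 doubted libraries the log2 fold change was 0.375 (adjusted p = 0.0014). These 3 Rbfox calls passed under every alternative and without each library.

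Rbfox3, which encodes the neuronal marker NeuN, had 65.9, 72.5 and 86.5 CPM in the controls. After Chd8 shRNA it had 51.5, 54.3 and 103 CPM, with 4 libraries below the controls and 1 above. The log2 fold change of −0.23 did not pass (adjusted p = 0.448, with the replicate block −0.26 and 0.0389). After Setd5 shRNA the change was −0.295 (adjusted p = 0.449, with the block 0.0422), and without the 3 doubted libraries −0.177 (0.799). The Nova proteins, which bind clustered motifs near exons of synaptic transcripts, passed in 0 of 18 pairs, beside 6.99% of all pairs. DESeq2 called 0, and 1 pair had an unadjusted p under 0.05. That pair was Nova1 after Setd5 shRNA. Nova1 had 19.3, 25.5 and 39.0 CPM in the controls and 11, 19 and 23.4 CPM after Setd5 shRNA, with a log2 fold change of −0.58 (SE 0.245, adjusted p = 0.186, with the block 0.00035). Without the 3 doubted libraries it was −0.78 (adjusted p = 0.109). Nova2, the form most used in cortex, was closest to the threshold after Setd5 shRNA as well, at a log2 fold change of 0.117 (adjusted p = 0.761, and 0.153 and 0.767 without those libraries).

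The Chd8 knockdown, in which Elavl3 and Rbfox1 fell, also changed other neuronal genes. Of 11 neuron markers 2 were higher and 5 lower (63.6%, background 22.3%). Their summed level was 7450 to 8130 CPM against 7870 to 8940 CPM in the controls. Of 5 tested fibroblast and endothelial markers 1, Dcn, was lower (log2 fold change −1.89, adjusted p = 0.0031). The sum over the list of 6 was 9.24 to 17.1 CPM against 17.6 to 49.3 CPM, which did not overlap. Dcn had the highest median of this list, 20.2 CPM over all libraries, and weighs heavily in the sum. Of 8 astrocyte markers 1 was lower, and they summed to 66.8 to 202 CPM against 106 to 183 CPM. In the other knockdowns with Elavl and Rbfox calls the neuron marker sums overlapped the controls. The sum was 7580 to 8650 CPM after Ash1l shRNA, with 1 marker higher and 2 lower (27.3%, background 6.16%). There Slc17a6 had a log2 fold change of 0.95 (adjusted p = 2.2e-05) and Gad1 of −1.28 (1.7e-08), opposite changes that a sum can hide. Setd5 shRNA gave 8200 to 8980 CPM, with 1 higher, Stmn2 (9.1%, background 5.3%), at an adjusted p of 0.083 without the 3 doubted libraries. Tbr1 shRNA gave 7050 to 8290 CPM, with 0 called by edgeR (background 1.33%), 4 at an unadjusted p under 0.05 and 0 by DESeq2. The part of these markers in the changes of splicing regulators was not tested.

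Celf proteins bind GU-rich elements, and Celf3, Celf4 and Celf5 are known mainly from the nervous system. All 6 Celf genes had log2 fold changes below 0 after Med13l shRNA, with a median of −0.465 beside −0.011 over all genes, and 5 of the 6 passed (12.3% of all genes were lower in this comparison). Celf2 fell most, by 0.64 (SE 0.17, adjusted p = 0.00321), from 392, 467 and 622 CPM to 223, 303 and 401 CPM, with 5 of 6 libraries below the controls. Celf5 went from 163, 171 and 203 CPM to 94.1, 121 and 153 CPM. Celf1 went from 174, 191 and 220 CPM to 109, 140 and 166 CPM, and Celf3 from 144, 157 and 172 CPM to 94.9, 121 and 137 CPM. None of these 3 genes had a library that reached the control range. They fell by 0.54 (SE 0.13, adjusted p = 0.00151), 0.49 (SE 0.12, adjusted p = 0.00132) and 0.44 (SE 0.11, adjusted p = 0.00346). Celf4 had 283, 328 and 348 CPM in controls and 174, 248 and 291 CPM after Med13l shRNA. Its decrease of 0.40 (SE 0.15, adjusted p = 0.0402) was lost with no filter (0.0539), without the 3 doubted libraries (0.052), and without Med13l shRNA female 3, male 1 or male 2 or any nontargeting library except female 3 (0.0511 to 0.131). Celf6 spread from 42.2 to 88.3 CPM after Med13l shRNA and did not pass, at −0.37 (SE 0.16, adjusted p = 0.0905).

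**Figure D4:**
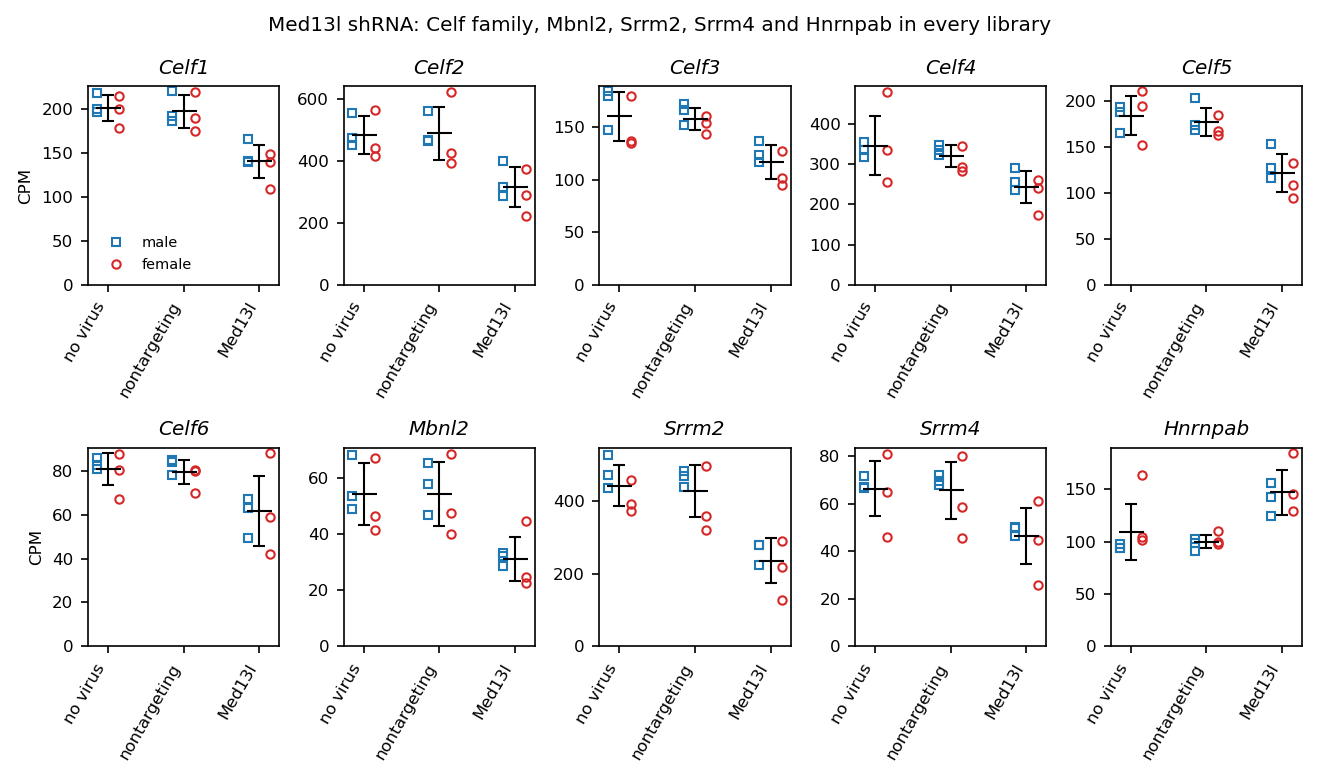
Level in CPM (vertical axis) of Celf1 to Celf6, Mbnl2, Srrm2, Srrm4 and Hnrnpab in the no virus, nontargeting and Med13l shRNA libraries (horizontal axis, 6 each). Squares are male and circles female libraries, and bars give the mean and SD. Srrm2 lies wholly below the nontargeting and no virus libraries after Med13l shRNA (median 252 against 453 CPM in the nontargeting libraries). Hnrnpab lies wholly above the nontargeting libraries (144 against 99.2 CPM) but not above the no virus ones, of which 1 is at 164 CPM.

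In other knockdowns Celf genes went either way. Celf5 rose by 0.43 after Chd8 shRNA (SE 0.13, adjusted p = 0.0125), to 194, 228 and 318 CPM, with 5 of 6 libraries above the controls. That call was lost without Chd8 shRNA male replicate 3 (0.0665). Celf1 rose by 0.41 after Setd5 shRNA (SE 0.12, adjusted p = 0.0262), to 182, 255 and 370 CPM. The highest value came from the library labelled Setd5 shRNA female replicate 1 and the lowest from the one labelled male replicate 1, which are among the doubted libraries. Without those the log2 fold change was 0.385 and did not pass (adjusted p = 0.0528), and the call was also lost without Setd5 shRNA female 1 or male 3 or nontargeting female 1, female 3, male 1 or male 2 (0.0584 to 0.179). Celf6 fell by 0.51 after Ash1l shRNA (SE 0.16, adjusted p = 0.045), from 70.1, 79.9 and 85.0 CPM to 43.1, 56.2 and 69.3 CPM, with no overlap. It passed only narrowly, since it was lost with no filter (0.0652) and without any 1 of the 12 libraries except Ash1l shRNA female 2 (0.052 to 0.159). With the replicate block, Celf6 also passed after Dnmt3a (−0.596, adjusted p = 4.7e-05, beside 0.061 without it) and Setd5 shRNA (−0.456, 0.0011, beside 0.127 without it and 0.164 without the doubted libraries). Celf5 likewise passed after Dnmt3a shRNA (−0.436, 0.0003, beside 0.0955), and Celf2, Celf3 and Celf4 after Chd8 shRNA (0.285, −0.235 and 0.268). Celf4 after Tbr1 shRNA (−0.349, 0.00131) was called with the block only.

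Of the 4 Srrm genes, 2 fell after Med13l shRNA. Srrm2, a large scaffold of nuclear speckles, had 321, 453 and 496 CPM in the controls and 128, 252 and 289 CPM after the knockdown, with no overlap. The decrease of 0.86 on the log2 scale (SE 0.13, adjusted p = 1.4e-06) had the smallest adjusted p of the members for Med13l, and the log2 fold change was −0.89 in females and −0.83 in males. Srrm4, the neural activator of microexons, had 45.8, 68.7 and 80.3 CPM in controls and 25.7, 48.2 and 61.4 CPM after Med13l shRNA, which overlapped. Srrm4 fell by 0.50 (SE 0.16, adjusted p = 0.0167), and the call was lost without Med13l shRNA female replicate 1 (0.112) or nontargeting female replicate 2 (0.0988). The values of Srrm3, its relative, were 28.6, 30.5 and 32.4 CPM against 25.4, 32.2 and 33.8 CPM, and those of the speckle protein Srrm1 67.5, 82.9 and 93.6 against 55.2, 71.6 and 85.7 CPM. Their log2 fold changes of 0.025 (adjusted p = 0.848) and −0.18 (0.24) did not pass.

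Muscleblind proteins promote mature splice forms and are known from myotonic dystrophy, where they are sequestered. Mbnl2, the main form of brain, had 40.2, 52.8 and 68.7 CPM in controls and 22.7, 30.5 and 44.7 CPM after Med13l shRNA, with 5 of 6 libraries below the controls. Mbnl2 fell by 0.81 (SE 0.20, adjusted p = 0.00155), by 0.85 in males and by 0.77 in females. Mbnl1 had 29.7, 38.6 and 55.8 against 37.5, 43.5 and 69.3 CPM in the same comparison, with a log2 fold change of 0.235 (adjusted p = 0.372), which did not pass. Whether the changes of Mbnl1 and Mbnl2 differ was not tested. With the replicate block Mbnl1 passed after Tbr1 shRNA (−0.51, adjusted p = 0.00085, beside 0.198 without it) and Mbnl2 after Dnmt3a shRNA (−0.52, 0.00996, beside 0.25). Mbnl3, at under 1 CPM in the nontargeting libraries, did not pass in any knockdown (smallest adjusted p 0.498).

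After Med13l shRNA the neuron markers were 1 higher and 2 lower of 11 (27.3%, background 24.1%). Their median log2 fold change was −0.03, beside −0.011 over all genes. Their sum was 6700 to 7820 CPM against 7870 to 8940 CPM in the controls, and these ranges did not overlap. The marker with the smallest adjusted p was Syt1, the synaptic calcium sensor, with a log2 fold change of −2.34 (SE 0.20, adjusted p = 3.7e-13). Syt1 had a median of 1090 CPM over all libraries, so it weighs heavily in the sum. Of 9 progenitor and proliferation markers 2 were higher and 2 lower (sum 151 to 242 against 130 to 178 CPM), and of 8 astrocyte markers 2 were lower (119 to 301 against 106 to 183 CPM). Among 7 tested oligodendrocyte lineage markers 2 were lower (35.0 to 45.9 against 40.7 to 51.3 CPM over the list), and 1 of 5 fibroblast and endothelial markers was (14.8 to 33.3 against 17.6 to 49.3 CPM). Their part in the decreases of Celf, Mbnl2 and Srrm genes was not tested.

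Ptbp proteins bind CU-rich tracts and repress neural exons, and the switch from Ptbp1 to Ptbp2 is a step of neuronal differentiation. Neither of these 2 genes passed in any knockdown. Ptbp1 came closest after Chd8 shRNA, at −0.18 (adjusted p = 0.19), and Ptbp2 had its smallest adjusted p there, at 0.185 (0.538). With the block Ptbp2 passed after Dnmt3a shRNA (0.26, adjusted p = 0.0304, beside 0.697 without it). Ptbp3, the least studied paralogue, had 13.4, 15.5 and 17.0 CPM in controls. After Chd8 shRNA it had 17.3, 25.5 and 40.4 CPM, all above the controls, and it rose by 0.76 (SE 0.23, adjusted p = 0.0135), a call lost without Chd8 shRNA female replicate 1 (log2 fold change 0.51, adjusted p = 0.138). The no virus library female 1 was at 24.6 CPM, within the Chd8 range. Levels were in a like range after Dnmt3a shRNA, with a median of 25 and a highest value of 39.7 CPM, after Ash1l shRNA, at 16.1, 23.8 and 31.1 CPM, and after Med13l shRNA, at 15.4, 21.7 and 27.8 CPM. In each of these 5 of 6 libraries were above the controls. None of the 3 passed (log2 fold changes of 0.79, 0.66 and 0.54, adjusted p = 0.0831, 0.0838 and 0.085), although Dnmt3a did with the block (0.74, adjusted p = 9.2e-05). DESeq2 also called the Dnmt3a change (adjusted p = 0.0383).

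Of the STAR-domain proteins, Khdrbs3 (SLM2), which controls neurexin exons, rose by 0.23 after Chd8 shRNA (SE 0.077, adjusted p = 0.0244), from 114, 129 and 151 to 137, 154 and 169 CPM with 4 of 6 libraries above the controls. This was lost against no virus (0.0901) and without Chd8 shRNA female 1 or male 3 or nontargeting female 2 or male 3 (0.0681 to 0.0836). Khdrbs1 (Sam68) and Khdrbs2 (SLM1) did not pass. Their smallest adjusted p were both after Ash1l shRNA, 0.158 at 0.28 and 0.529 at −0.28. With the block Khdrbs1 passed after Chd8 shRNA (0.19, adjusted p = 0.0304) and Khdrbs3 after Setd5 shRNA (0.19, 0.0489, beside 0.148 without it and 0.108 without the doubted libraries). Qk, known for myelin and glial RNA, had 66.8, 95.7 and 112 CPM in controls and 53.0, 69.0 and 89.7 CPM after Med13l shRNA, at −0.39 (SE 0.215, adjusted p = 0.194). It passed in none of the 9 knockdowns by edgeR, with 0 pairs at an unadjusted p under 0.05 and 0 by DESeq2, and with the block it passed after Chd8 shRNA (0.256, adjusted p = 0.0319).

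Among the 20 tested hnRNP genes, 11 of 180 pairs passed, 8 higher and 3 lower, or 6.1%, beside 6.99% of all pairs. Hnrnpab, whose product binds AU-rich RNA and takes part in RNA transport, was called in 3 knockdowns and in both directions. It had 91.2, 99.2 and 110 CPM in the controls. After Med13l shRNA it had 125, 144 and 185 CPM and after Chd8 shRNA 119, 127 and 163 CPM, all above the controls, and after Tbr1 shRNA 55.1, 71.9 and 86.3 CPM, all below. The no virus library female 1 was at 164 CPM, above every Chd8 library and within the Med13l range. Hnrnpab rose by 0.56 (SE 0.11, adjusted p = 0.00016) and 0.43 (SE 0.11, adjusted p = 0.00349) and fell by 0.50 (SE 0.11, adjusted p = 0.00777). Leaving out Tbr1 shRNA male 2 ended the last call (0.062). With the block it also passed after Setd5 shRNA (0.28, adjusted p = 0.0186, beside 0.126 without it). Without the doubted libraries and the block the Setd5 value was 0.174 (0.527), and the highest level, 181 CPM, was in the library labelled Setd5 shRNA female 1. Of its merged exon bases 29.1% lie over exons of Phykpl on the opposite strand. The strand setting of the counting is not given in the sources used here, so the share of these counts that belongs to Phykpl is unknown.

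Hnrnpf, which binds runs of G, rose after both Med13l and Chd8 shRNA. It had 15.4, 17.8 and 19.8 CPM in controls, 19.1, 24.1 and 25.4 CPM after Med13l and 18.8, 21.2 and 26.5 CPM after Chd8 shRNA. The rise was 0.405 (SE 0.11, adjusted p = 0.00338) and 0.30 (SE 0.10, adjusted p = 0.031). The Chd8 call was lost against no virus (0.0945), with no filter (0.0515), and without Chd8 shRNA female 1 or male 3 or nontargeting female 1, female 3 or male 2 (0.0549 to 0.125). Hnrnpl, which binds CA repeats, rose by 0.245 after Med13l shRNA (SE 0.062, adjusted p = 0.00238), from 168, 182 and 200 to 198, 212 and 250 CPM. Hnrnph3, of the same subfamily as Hnrnpf, rose by 0.41 (SE 0.12, adjusted p = 0.00782), from 21.1, 26.2 and 28.6 to 28.7, 34.6 and 40.0 CPM. These ranges did not overlap, but the no virus library female 1 was at 42.2 CPM. Hnrnpm rose by 0.34 (SE 0.10, adjusted p = 0.00972), from 56.9, 73.6 and 76.8 to 76.2, 90.9 and 102 CPM, a call lost against no virus (0.0956), and 14.7% of its exon bases are shared with March2 on the same strand.

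Med13l shRNA also lowered 2 hnRNP genes. Hnrnpa1 went from 210, 222 and 280 to 147, 171 and 240 CPM, a decrease of 0.39 (SE 0.135, adjusted p = 0.0275). That call was lost without Med13l shRNA female 1, female 3, male 1 or male 2 or nontargeting female 2 or male 3 (0.0599 to 0.139). Hnrnpul1, a relative of Hnrnpu, went from 99.2, 114 and 129 to 67.5, 86.4 and 102 CPM, a decrease of 0.40 (SE 0.12, adjusted p = 0.00931), lost without Med13l shRNA female replicate 1 (0.0604). After Kdm6b shRNA Hnrnpul1 had 51.5, 81.9 and 113 CPM and did not pass in edgeR (−0.43, adjusted p = 0.0578), while DESeq2 called it (adjusted p = 0.0291). The highest value came from the library labelled Kdm6b shRNA male 1, against 74.3 and 73.0 CPM in male 2 and 3. Without the 3 doubted libraries Hnrnpul1 passed in edgeR (−0.54, adjusted p = 0.00275). Hnrnpu, a nuclear scaffold protein that binds chromatin and RNA, rose by 0.28 after Chd8 shRNA (SE 0.10, adjusted p = 0.0378), from 297, 349 and 410 to 352, 428 and 497 CPM. It was lost with no filter (0.0671) and without Chd8 shRNA female 1, female 2 or male 3 or any nontargeting library except female 2 (0.0566 to 0.148). With the block 2 more hnRNP genes passed, Hnrnpd after Chd8 shRNA (−0.26, adjusted p = 0.0287, beside 0.184 without it) and Hnrnpul2 after Tbr1 shRNA (−0.36, 0.00048, beside 0.2).

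The SR protein genes were the largest of the 3 families with no call, beside Nova and Qk. Over 11 genes and 9 knockdowns 0 of 99 pairs passed in edgeR, beside 6.99% of all pairs, and DESeq2 called 1. An unadjusted p under 0.05 was reached by 4 pairs, where 6.9% to 35.6% of all genes were under that value in single knockdowns. Log2 fold changes lay between −0.448 and 0.277. The lowest was Srsf12, a tissue-restricted SR-related repressor, after Dnmt3a shRNA. Srsf12 had 35.5, 43.1 and 51.8 CPM in controls and 27.1, 30.3 and 40.4 CPM after the knockdown, with 5 of 6 libraries below the controls (SE 0.13, adjusted p = 0.0548, with the block 0.00018, DESeq2 0.0414). With the block it also passed after Tbr1 shRNA (−0.347, adjusted p = 0.00473, beside 0.226 without it).

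Levels of several Srsf genes went with the replicate number of the female libraries. Srsf3 had a lowest, median and highest level of 219, 266 and 364 CPM in the 11 female replicate 1 libraries, which cover all conditions. It had 110, 132 and 152 CPM in replicate 2 and 124, 156 and 183 CPM in replicate 3. Srsf1, the founding SR protein, had 206, 238 and 277 CPM against 129, 146 and 157 and 115, 140 and 159 CPM. Srsf7 had 132, 160 and 175 CPM against 78.9, 87.3 and 103 and 95.0, 109 and 122 CPM, and Srsf10 had 76.6, 91.0 and 117 CPM against 50.0, 52.2 and 61.5 and 53.8, 58.0 and 64.5 CPM. For 9 members, Srsf1, Srsf2, Srsf3, Srsf6, Srsf7, Srsf10, Ptbp2, Elavl2 and Hnrnpr, every female replicate 1 library was above every other female library. The share of all genes tested that did so was not counted, so the 9 are a description. The median of replicate 1 was 1.82 times that of the other numbers for Srsf3, 1.69 times for Srsf1 and 1.62 times for Ptbp2. In males the medians of Srsf1 were 157, 160 and 158 CPM for replicates 1, 2 and 3, and those of Srsf3 149, 149 and 156 CPM, with overlapping ranges.

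As a share of the variance of log2 CPM over 33 female libraries, the replicate number took a median of 78.8% for the 11 Srsf genes, 49.0% for all 60 members and 25.4% over all genes tested, and treatment took 10.4% for the Srsf genes. In males the same shares for the number were 11%, 15.2% and 8.4%. Members and all genes tested were not matched for level in these shares. Elavl3 stood at the other end, with 82.55% of the female and 91.92% of the male variance between treatments. The pattern was not limited to these genes: 866 genes (5.36%) were highest in replicate 1 in all 11 female conditions, and 1158 (7.17%) in replicate 2, where the members were 14 and 5 of 60. In males replicate 3 was highest in all 11 conditions for 7 members, Celf1, Celf2, Celf5, Elavl3, Hnrnpa1, Nova2 and Rbfox3, and for 396 genes (2.45%). Other values moved with the number in females. The female replicate 1 libraries had 1.01% to 1.42% of their counts on rows without a gene symbol, against 0.69% to 1.07% and 0.758% to 0.907% in replicates 2 and 3. Their astrocyte markers summed to 158 to 392 CPM against 66.8 to 164 and 88.6 to 208 CPM. The progenitor sum was 166 to 242 CPM against 123 to 158 and 117 to 173 CPM. The part of these in the Srsf levels was not tested. Since each condition had 1 library of each number, the contrasts between conditions hold equal shares of them. The fit without a replicate block leaves this variance in the spread that its tests use. The lack of Srsf calls in that fit therefore does not show a lack of effect.

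**Figure D5:**
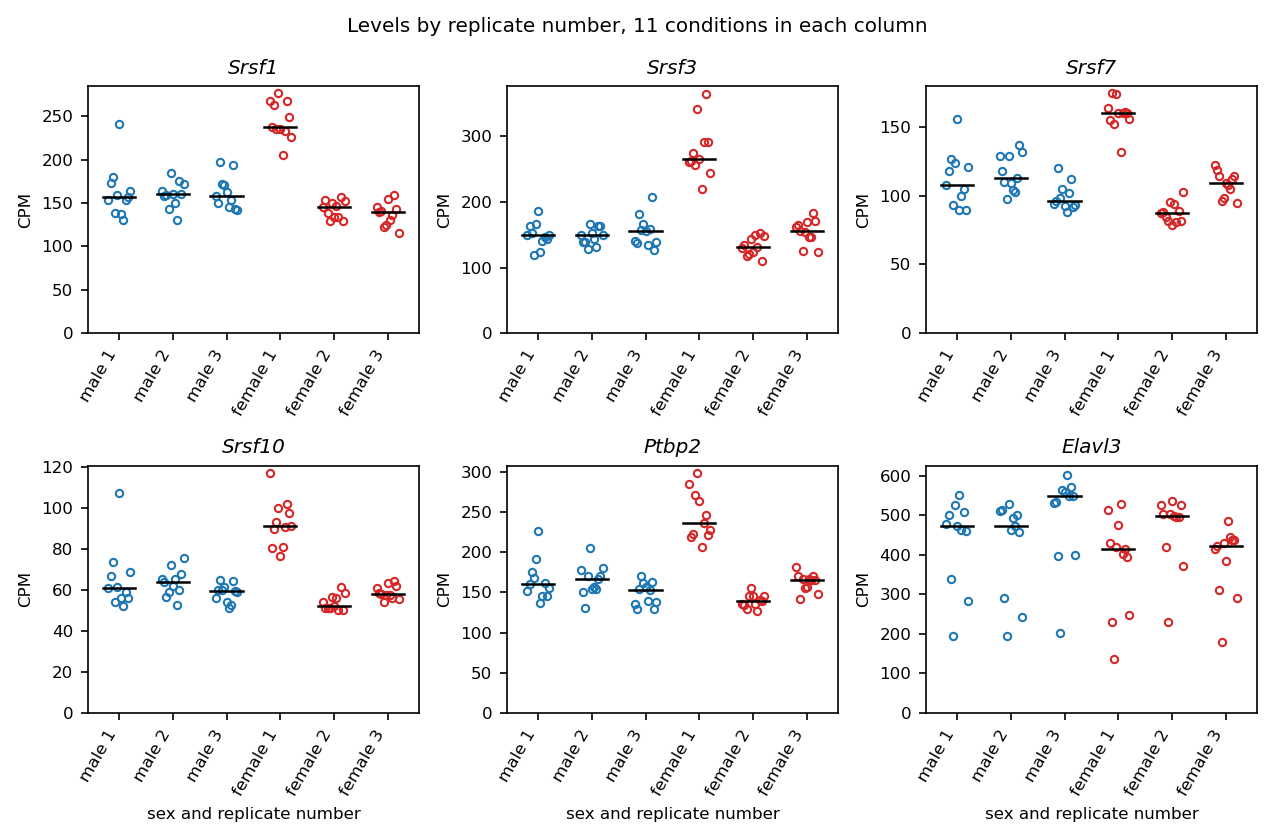
Level in CPM (vertical axis) of Srsf1, Srsf3, Srsf7, Srsf10, Ptbp2 and Elavl3 by sex and replicate number (horizontal axis), with 1 point for each of 11 conditions and a line at their median. In females replicate 1 is high for the first 5 genes (Srsf3 median 266 CPM against 132 and 156), and in males the 3 numbers overlap.

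Within each sex, 3 libraries against 3, fewer pairs passed: 8 of 540 in males (1.48%, background 2.28%) and 13 in females (2.41%, background 2.68%). With the replicate block 44 passed in males (8.15%, background 7.01%) and 43 in females (7.96%, background 7.8%), where the numbers pair the libraries of 6 and 8 of the 9 knockdowns. Without the block the male calls were Elavl3 after Ash1l, Chd8 and Tbr1 shRNA, Rbfox1 and Rbfox2 after Chd8, and Hnrnpab, Mbnl2 and Srrm2 after Med13l shRNA. The female calls were Elavl3, Elavl4, Rbfox1 and Rbfox2 after Chd8, Celf1, Celf2, Celf3, Celf5, Hnrnpab, Hnrnpl and Srrm2 after Med13l, and Celf1 and Rbfox2 after Setd5 shRNA. The last 2 did not pass without the doubted libraries (adjusted p = 0.408 and 0.112). All 34 pairs called with the sexes averaged had the same direction in both sexes. Whether an effect differed by sex was tested for every pair, and 0 members passed in edgeR (0.00206% of all gene and knockdown pairs did). Only Srsf9 after Med13l shRNA had an unadjusted p under 0.05, with a male minus female difference of −0.44 (SE 0.19, adjusted p = 1), and DESeq2 called 0. The nontargeting shRNA against no virus changed 0 of 60 members and 0% of all genes, with 0 members at an unadjusted p under 0.05 and 0 by DESeq2. Nontargeting males against females gave 0 members (background 0.0434%), again 0 unadjusted and 0 by DESeq2. Of all genes, 0.7% had an unadjusted p under 0.05 for the virus, 1.5% for the sexes and 0.4% to 2.7% for sex differences of an effect. With no effect at all, a share equal to the threshold of 0.05 would be reached. These tests were therefore conservative, and their 0 counts do not show that effects are absent.

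Each knockdown was also set against the mean of the other 8, which does not use the nontargeting libraries. There 67 of 540 pairs passed (12.4%, background 14.9%), 25 of them for Med13l (background 34.8%) and 14 for Chd8 (34.3%), and 31 of the 34 calls against the nontargeting shRNA were among them. The exceptions were Hnrnpf, Khdrbs3 and Ptbp3 after Chd8 shRNA, with differences of 0.18 (adjusted p = 0.0604), 0.111 (0.132) and 0.36 (0.0959). Elavl3 after Chd8 shRNA stood at −1.21 on the log2 scale relative to the other knockdowns (adjusted p = 2.4e-14), and Rbfox1 stood at −1.08 (adjusted p = 1.3e-09). Hnrnpab after Tbr1 shRNA stood at −0.72 (adjusted p = 1.6e-07).

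The machinery that these regulators act on was described with 4 further lists. Of 62 core spliceosome genes, 13 were higher and 4 lower after Med13l shRNA (27.4%, background 24.1%, and 11.8% for higher genes), with a median log2 fold change of 0.185 beside −0.011 over all genes. Examples were U2af2, which recognises the polypyrimidine tract, at 0.30 (SE 0.055, adjusted p = 3.8e-05) and Sf3a3, of the U2 particle, at 0.44 (SE 0.093, adjusted p = 0.00031). After Chd8 shRNA 3 were higher and 2 lower (8.1%, below the background of 22.3%). The lower ones were the tri-snRNP factor Usp39, at −1.17 (SE 0.13, adjusted p = 6.4e-10), and Prpf40b, at −0.80 (SE 0.11, adjusted p = 1.3e-07). Setd5 shRNA raised 3 (4.8%, background 5.3%), among them Sf3b3 and Cdc40 (0.40 and 0.35, adjusted p = 0.019 and 0.0219). Without the 3 doubted libraries Cdc40 alone of the 3 passed (0.32, 0.0472, with Sf3b3 at 0.0575). Kdm6b shRNA lowered Snrpb, an Sm protein (−0.51, adjusted p = 0.0292, and 0.00645 without those libraries), the only call there (1.6%, background 0.966%). The other 5 knockdowns called 0 of 310 pairs in edgeR (backgrounds of 0.663% to 6.16%), with 11 at an unadjusted p under 0.05 and 0 by DESeq2.

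Of 8 SR protein kinases, Prpf4b and Srpk1 were among 3 lower after Chd8 shRNA (−0.52 and −0.17, adjusted p = 5.3e-06 and 0.0307), Srpk1 was higher after Ash1l shRNA (0.20, adjusted p = 0.0245), and Srpk3 was lower after Med13l shRNA (−0.91, adjusted p = 0.038). The shares were 37.5%, 12.5% and 12.5%, over backgrounds of 22.3%, 6.16% and 24.1%. Of 15 genes of nonsense-mediated decay and the exon junction complex, 4 were higher and 1 lower after Chd8 shRNA (33.3%, background 22.3%) and 2 higher and 2 lower after Med13l shRNA (26.7%, background 24.1%). Upf2, a core decay factor, was at 0.46 after Chd8 shRNA (adjusted p = 2.4e-05) and at 0.33 after Kdm6b shRNA (0.0317), a call lost without the doubted libraries (0.24, 0.134). The kinase Smg1 was at −0.76 after Chd8 shRNA (7.8e-05), and after Med13l shRNA Smg5 was at 0.44 (6.1e-06). Of 44 tested genes for other splicing regulators and RNA-binding proteins, 3 were higher and 8 lower after Chd8 and also after Med13l shRNA (25% each, over backgrounds of 22.3% and 24.1%). The paraspeckle protein Nono and the KH-domain protein Khsrp were at −1.15 (SE 0.081, adjusted p = 3.6e-16) and −1.12 (SE 0.13, adjusted p = 9.2e-10) after Chd8 shRNA. Nono was also lower after Kmt2c shRNA, at −0.39 (SE 0.080, adjusted p = 0.00462), while no member of the splicing families passed in that knockdown. Ddx17, an RNA helicase, and Sfswap were at −0.44 and −0.49 after Med13l shRNA (9.1e-06 and 1.5e-05), Raver2 at −0.46 after Ash1l shRNA (0.00525), and Rbm17 and Pcbp2 at 0.30 and 0.295 after Setd5 shRNA (0.0158 and 0.03). Without the doubted libraries Rbm17 passed (0.0361) and Pcbp2 did not (0.19).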

How the data were processed

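RNA sequencing of 66 libraries of cultured mouse neurons was used, 3 in each of 22 groups (11 treatments by 2 sexes). The authors deposited 1 table of raw read counts per gene, and the submitters' processing notes name STAR, featureCounts and mm10, with versions and the strand and read-pair settings not given in the sources used here. Of 72 library columns, 6 matched no sample used here and were left out. The control columns carry a luciferase name and were matched to the nontargeting group. Rows with no gene symbol (18483 of 48716) held 0.69% to 1.41% of the counts and were dropped, and 149 rows with a repeated symbol were summed. Of values from 1 to 20, 26.7% were odd, against 49.1% of those from 1000, so halved counts were also tried. PCR reads are not independent molecules, and precision was taken from the replicates. Libraries of 13634872 to 66074822 counts limit low genes most.

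Counts were fitted in R 4.3.3 with edgeR 4.0.16: filterByExpr (16145 genes), TMM scaling (0.874 to 1.06), robust quasi-likelihood F tests, 1 mean per group over all 66 libraries, and Benjamini-Hochberg adjustment over genes with a threshold of 0.05. SE is the log2 fold change divided by the root of F. CPM use TMM-scaled totals, and variance shares use log2 CPM with a prior count of 2. RPKM divides by merged exons of the GENCODE annotation of GRCm38, and promoters are from RefSeq (GRCm38.p6). Scripts were tested on simulated counts. Alternatives were DESeq2 1.42.0, DESeq2-type size factors, no filter on low counts, halved counts, no virus as control, a replicate block, and leaving out the 3 doubted libraries or each library.

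Replicate numbers were checked as the correlation over genes of deviations from group means between same-numbered knockdown and nontargeting libraries (r from 0.036 to 0.655 in females, −0.108 to 0.246 in males). All pairs exceeded 0.1 in both sexes for Chd8, Dnmt3a, Kmt2c, Mbd5, Setd5 and Tbr1 shRNA, which were taken as paired by this check and not by the labels. Genes named are all tested members of the smaller families. Of Srsf and Hnrnp they are members called the same way in at least 2 knockdowns and the 3 smallest adjusted p per knockdown. Of the other lists they are the 2 smallest per knockdown, of which 1 is not reported here. Hnrnpa1, Hnrnpd, Hnrnph3, Hnrnpm, Hnrnpul1, Hnrnpul2, Stmn2 and the Srsf genes were named after their values were seen. The members and lists were chosen with earlier results of these data known.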

Additional observations from a re-analysis of the deposited data

How the results depend on the processing

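None of the 34 calls or the other listed effects reversed direction under any alternative. DESeq2, DESeq2-type size factors, the replicate block and halved counts kept all 34 calls. No filter on low counts lost 5, no virus as control 4 and leaving out the 3 doubted libraries 2, and 18 were called in every alternative and without each library. Numbers of members called moved as follows. With no filter, Ash1l shRNA gave 1, and the male pairs numbered 5 and the female pairs 7. The replicate block gave 11 for Ash1l (17.2% of all genes), 18 for Chd8, 6 for Dnmt3a, 4 for Kdm6b (7.86%), 26 for Med13l (41.5%), 8 for Setd5 and 6 for Tbr1 shRNA, 44 and 43 pairs in males and females (7.01% and 7.8% of all pairs), and 159 against the other 8 knockdowns (28.2%). It changed no other count. Replicate numbers do not pair the libraries of Ash1l and Med13l shRNA in males or Kdm6b shRNA in either sex. Dnmt3a shRNA had 3 members with DESeq2, 2 without the doubted libraries and 1 against no virus. Kdm6b shRNA had 1 with DESeq2, with halved counts, without the doubted libraries and against no virus. No paired analysis was possible for males against females because the numbers are nested in sex, and the cause of these moves was not tested.

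Leaving out each library in turn gave 1 to 3 members for Ash1l shRNA (1 without Ash1l shRNA female 1, male 1 or male 3 or nontargeting female 3, male 2 or male 3). It gave 6 to 11 for Chd8 (6 without Chd8 shRNA female 1 or male 3), 0 to 4 for Dnmt3a (4 without Dnmt3a shRNA female 2, 1 without Dnmt3a shRNA female 3 or nontargeting female 3), 0 to 1 for Kdm6b (1 without Kdm6b shRNA female 3 or male 1), 12 to 19 for Med13l, 1 to 6 for Setd5 (6 without Setd5 shRNA female 2, 1 without male 3) and 1 to 3 for Tbr1 shRNA (1 without Tbr1 shRNA male 2). Kmt2c and Mbd5 shRNA stayed at 0. Pairs ranged from 3 to 9 in males (3, 5 and 4 without nontargeting male 1, 2 and 3), 7 to 16 in females (7 without Med13l shRNA female 1 or nontargeting female 2) and 60 to 71 against the other 8, and the sex difference, the virus and the sex comparisons gave 0 throughout. Depth limits Mbnl3 and Hnrnpa1l2-ps2 most.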
